A study of Mus musculus with 9 samples.

Results

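Messenger RNA of 5 interferon-inducible membrane protein genes, Ifitm1, Ifitm2, Ifitm3, Bst2 and Ifi27l2a, was followed in mouse cerebellum. The genes were taken by symbol from tables of 53924 named rows, and each symbol had 1 row. IFITM proteins sit in the plasma membrane and in endosomes, where they hinder the fusion of viral envelopes with the cell, and IFITM3 acts mainly in late endosomes. Bst2 encodes tetherin, also called CD317 or PDCA-1, which is anchored in the membrane at both ends and holds newly formed enveloped virions on the cell that made them. Ifi27l2a encodes a small protein of the ISG12 family, found in intracellular membranes. Interferons bind receptors whose kinases activate STAT and IRF factors. These factors bind the interferon-stimulated response element (ISRE) or the gamma-activated site (GAS) of target genes, and such genes are known to be induced in microglia and endothelium of the inflamed brain.

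The study compared 3 groups of 3 bulk RNA-seq libraries each, all from cerebellum. The control group had received saline, and the 3AP group 3-acetylpyridine (3-AP), a nicotinamide analogue that damages the inferior olive and causes ataxia. The PLX3AP group had received 3-AP after PLX3397, an inhibitor of the CSF1 receptor that depletes microglia and other macrophages dependent on it. No group had received PLX3397 without 3-AP, so the effect of the inhibitor alone cannot be separated from its effect on the response to 3-AP. The labels give no strain, age, sex, dose or time between treatment and sampling. Nor do they tie a library to a single mouse, so the p-values rest on a spread among samples that may be technical. In bulk RNA, fewer cells of a type and less RNA per cell cannot be told apart.

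Libraries held 18452256 to 22358447 estimated counts, and the filter on low counts kept 16634 genes for testing. Markers of the tissue were present in every library: the summed level of 6 Purkinje cell markers was 6798 to 8448 CPM (counts scaled to library size), and that of 6 granule cell markers 3695 to 4563. Pairs of libraries of a group differed by more than sampling noise, with a chi-square of 4.68 to 27.2 per degree of freedom. Control replicate 3 stood apart in 6 choroid plexus markers, whose summed level was 4003 CPM there, 115 and 344 in the other control libraries, and 27.5 to 2029 in the 3AP and PLX3AP libraries.

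The 3 Ifitm genes lie together on chromosome 7 of the GRCm38 build (mm10). Ifitm2 (ENSMUSG00000060591.9) spans 140954837 to 140955987 on the minus strand, Ifitm1 (ENSMUSG00000025491.14) 140967221 to 140969825 on the plus strand, and Ifitm3 (ENSMUSG00000025492.6) 141009586 to 141010770 on the minus strand. Ifitm2 and Ifitm3 have 2 exons in 1 annotated transcript each, and Ifitm1 up to 3 exons in 3 transcripts. Bst2 (ENSMUSG00000046718.8) spans 71534255 to 71537456 of chromosome 8 on the minus strand, with up to 5 exons in 2 transcripts. Ifi27l2a (ENSMUSG00000079017.3) spans 103442167 to 103443680 of chromosome 12 on the minus strand, with 4 exons. The annotated gene Gm45717 overlaps Ifitm2 on the same strand and had 0 counts in all 9 libraries, and no other gene overlaps the other 4. Ifitm genes are paralogs, and the sources used here do not say how reads that match more than 1 of them were divided. All 45 estimated counts of the 5 genes were whole numbers (within 1e-09).

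The promoters are shown because the genes moved together in the comparisons below. RefSeq promoters (GRCm38.p6) were matched for 4 of the 5 genes, and Ifi27l2a is named only. Each run has 250 bases, 5′ to 3′ on the strand of the gene, and ends at the base before the annotated start, except that of Ifitm3, which runs from 221 bases before the start to base 29 of the transcript. Starts are those of RefSeq. For Ifitm1 that start is downstream of the outermost start of the GRCm38 annotation, so its run lies inside the gene span given above. The bases before that outermost start were not searched. The RefSeq starts of Ifitm2 and Ifitm3 are also downstream of the annotated ones, by less, so their runs overlap the gene spans in part. That of Bst2 lies outside its gene span. Capitals mark the ISRE core, which is GAAA, any 2 bases, then GAAA.
Ifitm1, chr7:140967826-140968075, strand +: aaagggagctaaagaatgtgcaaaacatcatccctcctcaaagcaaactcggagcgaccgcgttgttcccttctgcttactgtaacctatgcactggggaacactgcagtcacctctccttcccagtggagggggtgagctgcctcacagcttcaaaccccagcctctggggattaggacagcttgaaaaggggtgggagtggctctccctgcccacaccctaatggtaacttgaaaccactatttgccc
Ifitm2, chr7:140955962-140956211, strand minus: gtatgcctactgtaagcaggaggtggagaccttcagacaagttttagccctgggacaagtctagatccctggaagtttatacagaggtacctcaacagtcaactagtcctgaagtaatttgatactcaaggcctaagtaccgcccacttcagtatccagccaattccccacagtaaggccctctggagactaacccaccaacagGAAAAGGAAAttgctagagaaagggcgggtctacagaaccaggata
Ifitm3, chr7:141010716-141010965, strand minus: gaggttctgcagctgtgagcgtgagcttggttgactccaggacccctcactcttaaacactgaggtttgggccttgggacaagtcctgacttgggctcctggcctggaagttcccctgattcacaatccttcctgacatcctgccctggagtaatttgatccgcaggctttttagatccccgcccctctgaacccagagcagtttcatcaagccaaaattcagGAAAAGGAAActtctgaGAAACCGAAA
Bst2, chr8:71537473-71537722, strand minus: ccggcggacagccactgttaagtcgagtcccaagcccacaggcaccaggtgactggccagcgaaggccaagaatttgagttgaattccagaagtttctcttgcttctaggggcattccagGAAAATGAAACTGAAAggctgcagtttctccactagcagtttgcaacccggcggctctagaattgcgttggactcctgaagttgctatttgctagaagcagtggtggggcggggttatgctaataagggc

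In windows from 250 bases before to 50 after the start, searched on both strands, the ISRE core occurred in 1131 of 32851 RefSeq promoters (3.44%). The GAS core TTCNNNGAA, which reads the same on both strands, occurred in 2726 of them (8.30%). Ifitm2 held 1 ISRE core, 46 to 37 bases before the start. Ifitm3 held 2 ISRE cores, GAAAAGGAAA at bases 3 to 12 and GAAACCGAAA at bases 20 to 29 of the transcript (the start being base 1), and 1 GAS core at bases 14 to 22 that overlaps the latter. The same 10 letters, GAAAAGGAAA, made up the match of Ifitm2. Bst2 held GAAAATGAAA, 130 to 121 bases before the start, and GAAACTGAAA, 124 to 115 bases before it, which overlap, and a GAS core from 136 to 128 bases before the start that overlaps the former. The window of Ifitm1 had no match to either motif, which says only that these letters are not in these 300 bases around the RefSeq start.

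The effect of 3-AP was read from the 3AP and control libraries. All 5 genes rose in the 3AP group, where 3.75% of the tested genes were called higher and 4.93% were called in either direction. The rises ranged from 2.52-fold for Ifitm2 to 10.9-fold for Ifi27l2a, and the median log2 fold change was 2.44, beside 0.001 for all tested genes. No control library reached the level of any 3AP library in any of the 5 genes. Such a separation upward was seen in 13.6% of the tested genes. Adjusted p-values here and below are from edgeR's quasi-likelihood test with Benjamini-Hochberg adjustment over all tested genes, and genes with an adjusted p under 0.05 are called.

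Ifitm3, the family member best known for blocking influenza virus entry, had the highest mean level of the 5 per transcript length in 3AP. Its estimated counts were 183, 214 and 292 in control replicates 1, 2 and 3, and 1702, 1655 and 1104 in the 3AP replicates. The lowest 3AP library was thus well above the highest control library, and the 3AP libraries differed among themselves, with replicate 3 lowest. Scaled to library size, Ifitm3 went from 11.4 ± 2.65 CPM (SD, n = 3) in control to 72.6 ± 16.5 CPM in 3AP. The fitted rise was 6.36-fold (log2 2.67, SE 0.20, 95% interval 2.23 to 3.10; adjusted p = 3.6e-05). By p-value it ranked 30 among the 16634 genes.

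Ifitm2 is a close relative of Ifitm3 in sequence and also acts in endosomes. It had 177, 208 and 271 estimated counts in control and 608, 648 and 427 in 3AP. No control library reached the lowest 3AP library, which was again replicate 3. It rose 2.52-fold, from 10.9 ± 2.26 to 27.4 ± 5.83 CPM (log2 1.33, SE 0.19, 95% interval 0.92 to 1.75; adjusted p = 0.0013). The 95% intervals of Ifitm2 and Ifitm3 do not overlap on the log2 scale.

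Ifitm1, found more at the cell surface than the other two, had 59, 95 and 116 estimated counts in control and 431, 397 and 211 in 3AP. Its 3AP libraries were the most uneven of the 3 Ifitm genes relative to their mean, with replicate 3 well below the other two. It rose 3.77-fold, from 4.48 ± 1.42 to 16.9 ± 5.85 CPM (log2 1.92, SE 0.33, 95% interval 1.19 to 2.64; adjusted p = 0.0071).

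Bst2 had 65, 58 and 113 estimated counts in control and 435, 488 and 381 in 3AP. Control replicate 3 stood above the other control libraries, and the 3AP libraries lay close together. Tetherin mRNA rose 5.43-fold, from 3.89 ± 1.40 to 21.2 ± 2.65 CPM (log2 2.44, SE 0.22, 95% interval 1.96 to 2.92; adjusted p = 4.6e-05). It ranked 31 by p-value, next to Ifitm3.

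Ifi27l2a had the lowest mean level of the 5 per transcript length in control, with 10, 10 and 31 estimated counts, against 205, 208 and 154 in 3AP. Its control libraries ranged from 0.491 to 1.51 CPM, and the lowest 3AP library was still far above the highest of them. It rose 10.9-fold, from 0.839 ± 0.582 to 9.22 ± 1.52 CPM (log2 3.44, SE 0.38, 95% interval 2.60 to 4.28; adjusted p = 0.00026). The size of this rise rested in part on control replicate 3: without that library it was 18.1-fold (log2 4.18). Without the same library the log2 rises of Ifitm3 and Bst2 were 2.86 and 2.78.

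**Figure D1:**
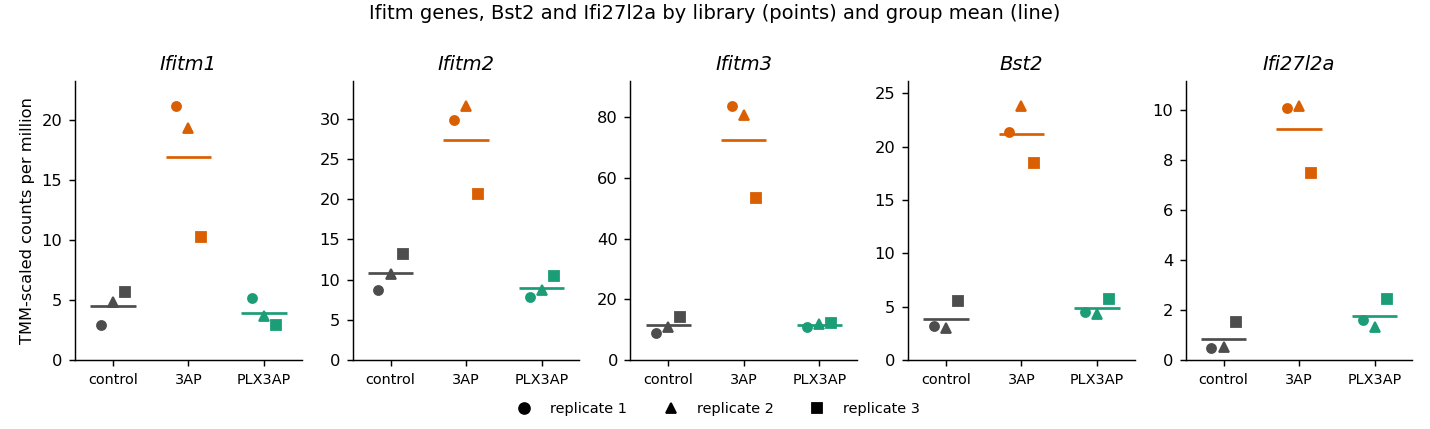
TMM-scaled CPM (vertical axis, starting at 0, its own scale for each gene) of the 5 genes in the control, 3AP and PLX3AP groups. Points are libraries, their shapes mark the replicate number, and lines are group means (n = 3). All 3AP libraries sit above all others in each panel, Ifitm3 reaching 53.5 to 83.5.

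Whether levels after 3-AP differed when PLX3397 had been given before it was read from the PLX3AP and 3AP libraries. All 5 genes were lower in PLX3AP, by 3.03-fold for Ifitm2 to 6.22-fold for Ifitm3, where 3.16% of the tested genes were called lower and 3.73% in either direction. The median log2 fold change of the 5 was -2.13, beside -0.008 for all tested genes. Their PLX3AP and 3AP libraries did not overlap, a downward separation seen in 9.22% of the tested genes. This comparison shares the 3AP libraries with the preceding one, so the 2 are not independent.

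Ifitm3 had 198, 266 and 253 estimated counts in PLX3AP replicates 1, 2 and 3, or 11.7 ± 0.678 CPM. It was the most even of the 5 across these libraries relative to its mean. Compared with 3AP it fell 6.22-fold (log2 -2.64, SE 0.20, 95% interval -3.07 to -2.20; adjusted p = 4.2e-05). Ifitm2 had 143, 193 and 220 counts, or 9.02 ± 1.35 CPM, and fell 3.03-fold (log2 -1.60, SE 0.19; adjusted p = 0.0004). Ifitm1 had 94, 81 and 62 counts, or 3.93 ± 1.13 CPM, and fell 4.32-fold (log2 -2.11, SE 0.33; adjusted p = 0.0046). The fall of Ifitm2 was thus again the smallest of the 3 Ifitm genes.

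Bst2 had 82, 95 and 120 estimated counts in PLX3AP, or 4.84 ± 0.775 CPM, and fell 4.37-fold (log2 -2.13, SE 0.21, 95% interval -2.59 to -1.66; adjusted p = 9.2e-05). Ifi27l2a had 29, 29 and 51 counts, or 1.78 ± 0.585 CPM, and fell 5.17-fold (log2 -2.37, SE 0.35, 95% interval -3.14 to -1.60; adjusted p = 0.0019). In both genes replicate 3 was the highest PLX3AP library, and it was below the lowest 3AP library.

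PLX3AP was also set against control, with which the first comparison shares its libraries. None of the 5 genes was called by edgeR's quasi-likelihood test, DESeq2 or limma-voom, and 1, Ifi27l2a, had an unadjusted p under 0.05. Calls were few among all genes as well, at 0.12% of those tested. The library ranges of PLX3AP and control overlapped for all 5, whereas 14.3% of the tested genes were separated in either direction. The median log2 fold change of the 5 was 0.03.

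Ifitm3 had the log2 fold change nearest to 0, at 0.03 (SE 0.20, 95% interval -0.42 to 0.48; adjusted p = 0.9764). That of Ifitm2 was -0.27 (95% interval -0.69 to 0.16; adjusted p = 0.6821) and that of Ifitm1 -0.20 (95% interval -0.96 to 0.57; adjusted p = 0.8886). Bst2 stood at 0.31 (95% interval -0.18 to 0.81; adjusted p = 0.6798), or at 0.65 without control replicate 3. None of the intervals from all 9 libraries holds the rise seen in 3AP, and each allows a moderate difference from control. Ifi27l2a was 2.10-fold above control (log2 1.07, SE 0.41, 95% interval 0.19 to 1.96; adjusted p = 0.4529), with PLX3AP libraries at 1.59, 1.31 and 2.43 CPM and control libraries at 0.491, 0.514 and 1.51 CPM. Control replicate 3 fell among the PLX3AP libraries and the other control libraries lay below them. Without that library the log2 fold change was 1.81, and over all alternatives its adjusted p was 0.1528 to 0.9172.

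**Figure D2:**
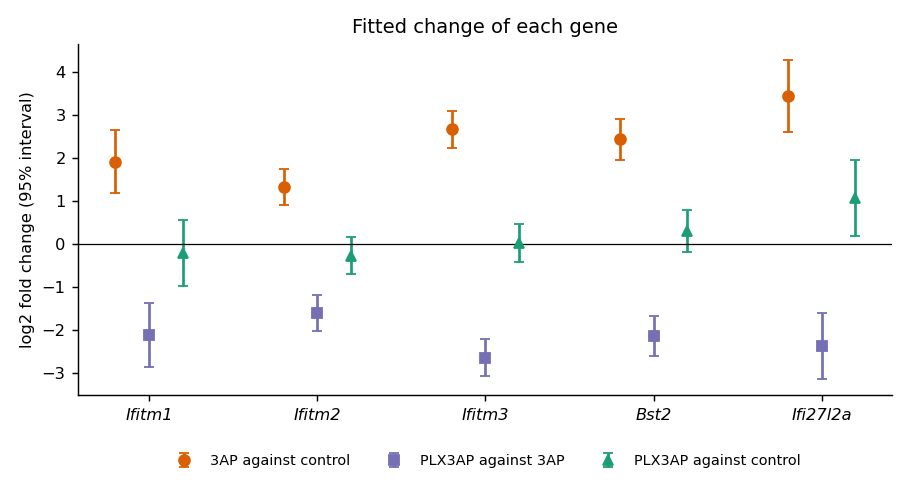
Log2 fold change (vertical axis) of each gene (horizontal axis) in the 3 comparisons, with 95% intervals from the fit to all 9 libraries. The intervals of 3AP against control lie above 0 and those of PLX3AP against 3AP below 0 for all 5 genes. Of the intervals of PLX3AP against control, that of Ifi27l2a does not include 0, from 0.19 to 1.96.

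Within groups the 5 genes were often highest or lowest in the same library. How many of all tested genes had their extremes in these libraries was not counted. The pattern is therefore not shown to be particular to the 5. Control replicate 3 was the highest control library for all 5, 3AP replicate 3 was the lowest 3AP library for all 5, and PLX3AP replicate 3 was the highest PLX3AP library for 4, Ifitm1 being lowest there. Control replicate 3 is the library with the high choroid plexus sum, and it also had the highest sum of 7 meningeal fibroblast markers in its group, 322 against 195 and 215 CPM. 3AP replicate 3 had the lowest sum of 9 monocyte and neutrophil markers in its group, 9.80 CPM against 25.1 and 17.7. Its sums for endothelium, astrocytes, meningeal fibroblasts and choroid plexus, among others, were also the lowest. Its sum for border-associated macrophages was instead the highest (39.1 CPM against 36.2 and 37.1), as were those for pericytes and oligodendrocytes. Its microglia sum lay between the others (274 CPM against 317 and 265). The part of these tissues and cells in the spread was not tested.

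TPM, the deposited values scaled to transcript length and library total, allow levels to be compared between genes. In control, Ifitm2 (43.4 ± 6.93 TPM) and Ifitm3 (42.9 ± 7.77) were the highest and overlapped, followed by Ifitm1 (21.1 ± 7.35), Bst2 (11.4 ± 3.47) and Ifi27l2a (6.46 ± 4.02). Of these neighbours, Ifitm3 and Ifitm1 alone did not overlap. In 3AP the order was Ifitm3 (285 ± 63.6 TPM), Ifitm2 (114 ± 24.3), Ifitm1 (85.8 ± 30.1), Ifi27l2a (75.3 ± 12) and Bst2 (65.3 ± 8.66). There Ifitm3 stood apart from Ifitm2, and the other neighbours overlapped. In PLX3AP the order was Ifitm3 (46.1 ± 4.86 TPM), Ifitm2 (38.0 ± 7.81), Ifitm1 (19.1 ± 2.69), Ifi27l2a (15.0 ± 5.85) and Bst2 (15.0 ± 3.18), and Ifitm2 and Ifitm1 alone did not overlap.

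The summed level of the 5 genes was 97.8 to 154 TPM in control, 468 to 716 in 3AP and 120 to 154 in PLX3AP. The make-up of that sum differed between groups. Ifitm2 made up 35.0 ± 2.29% of it in control, 18.2 ± 0.585% in 3AP and 28.4 ± 2.10% in PLX3AP. Ifitm3 made up 34.5 ± 1.49%, 45.5 ± 0.810% and 34.8 ± 2.32%. Ifi27l2a made up 4.92 ± 2.02% in control, 12.2 ± 0.876% in 3AP and 11.1 ± 2.81% in PLX3AP.

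The ratio of Ifitm2 to Ifitm3 in a library shows the change between these paralogs without regard to library scaling. It was 0.983 to 1.03 in control, 0.378 to 0.415 in 3AP and 0.766 to 0.922 in PLX3AP, and the 3 ranges did not overlap. The log2 ratio differed by -1.34 between 3AP and control, by 1.03 between PLX3AP and 3AP and by -0.31 between PLX3AP and control (exact two-sided permutation test, p = 0.1 each, adjusted p = 0.16 over 30 tests of 10 pairs of genes in 3 comparisons). With 3 libraries against 3, 0.1 is the smallest p this test can give. The ratio of Ifitm3 to Bst2 was 3.29 to 4.73 in control and 3.71 to 4.99 in 3AP, which overlap (log2 difference 0.17, exact permutation p = 0.4). In PLX3AP it was 2.71 to 3.58, below the 3AP range (log2 difference -0.47, exact permutation p = 0.1, adjusted p = 0.16) and overlapping the control range (-0.30, exact permutation p = 0.2, adjusted p = 0.29).

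**Figure D3:**
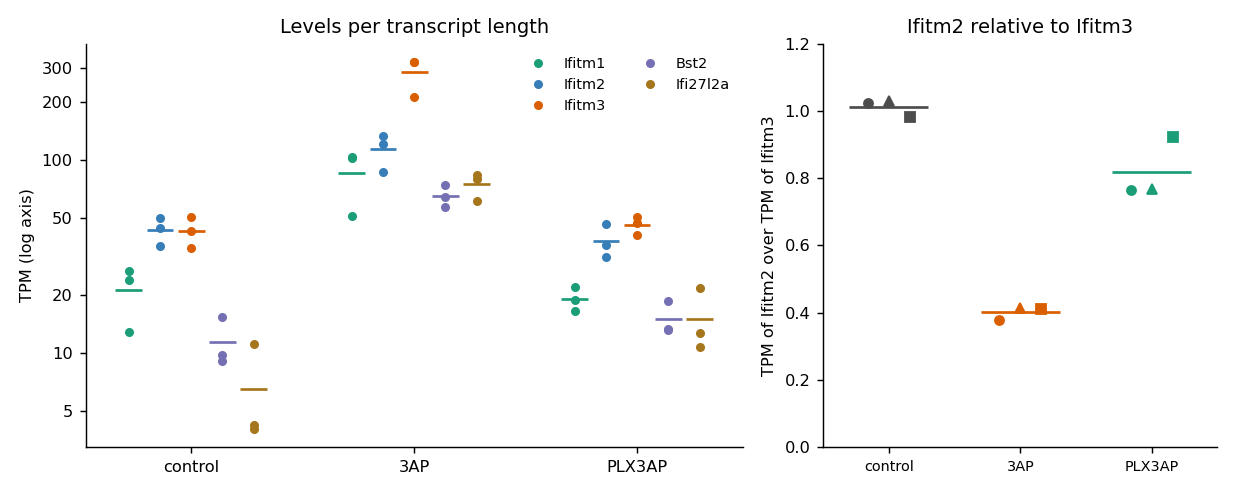
Left, TPM (log axis) of the 5 genes in each library (points) with group means (lines). Right, TPM of Ifitm2 divided by that of Ifitm3 in each library, with group means. The ratio is near 1 in control, 0.378 to 0.415 in 3AP and 0.766 to 0.922 in PLX3AP.

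Relatives of the 5 genes did not all behave alike. Ifi27, another ISG12 family gene, rose 2.69-fold in 3AP, from 16.7 ± 4.09 to 45.0 ± 5.73 CPM (adjusted p = 0.00029). It was 26.6 ± 2.87 CPM in PLX3AP, 1.70-fold below 3AP (adjusted p = 0.016), a call lost without 3AP replicate 1 or 2 or PLX3AP replicate 2 or 3 (adjusted p 0.071 to 0.095). In PLX3AP against control Ifi27 was 1.59-fold higher (log2 0.66; adjusted p = 0.2394). Ifitm6 had 1 estimated count over the control libraries, 47 over the 3AP libraries and 7 over the PLX3AP libraries. The ratio of 3AP to control in counts scaled for depth was 47.2 (exact 95% interval 8.07 to 1905, counting error only). The rise fitted by edgeR was 33.9-fold (adjusted p = 0.0028). The count ratio of 3AP to PLX3AP was 6.75 (3.03 to 17.7), and the fitted fall in PLX3AP was 6.36-fold (adjusted p = 0.026). The latter call was lost when any 3AP or PLX3AP library was left out. It was also lost under DESeq2, with the replicate block and by limma-trend on log2 TPM with a pseudocount of 0.1. The adjusted p in these fits was 0.05 to 0.1546. Ifitm6 passed the filter on low counts through its 3AP libraries alone, so its calls depend on a choice made by the same difference, and a stricter filter left it out. Of the 3 tested relatives 0 were called in PLX3AP against control by edgeR or limma-voom, 1 was called by DESeq2 and 2 had an unadjusted p under 0.05. Without control replicate 3, edgeR called 1 of them.

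Ifitm10, which lies outside the Ifitm1 to Ifitm3 cluster in sequence and is not a classical interferon target, was 48.0 ± 7.20 CPM in control, 54.0 ± 4.68 in 3AP and 56.3 ± 5.93 in PLX3AP. It was not called in any comparison (adjusted p = 0.5059, 0.8912 and 0.5533). Ifitm5, a gene of bone-forming cells, had 1 count in all. Ifitm7 had 4, 1 and 5 counts over the control, 3AP and PLX3AP libraries, and Ifi27l2b had 0 in every library. Neither these 3 nor any other gene under the filter on low counts was tested. Of 6 tested genes that share the CD225 domain of IFITM proteins but not the family, such as Prrt2 and Syndig1 of synapses, 0 were called in any comparison by edgeR, DESeq2 or limma-voom, and 1, 1 and 0 had an unadjusted p under 0.05.

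The 5 genes were then set beside the pathway that is known to induce them. Interferon ligands themselves were not detected: all 17 listed genes, Ifnb1 and Ifng among them, had 0 counts in all 9 libraries, which allows up to 3 counts of a gene in a library, or 0.135 to 0.163 CPM (counting error only). Of 8 tested receptor and kinase genes, 0 were called in any comparison by edgeR, DESeq2 or limma-voom, and 5, 4 and 0 had an unadjusted p under 0.05. Without 3AP replicate 3, 1 of the 8 was called in 3AP against control. Their median log2 fold changes were 0.28, -0.20 and 0.02. Ifnar1, a chain of the type I receptor, was 50.2 ± 2.10 CPM in control, 54.8 ± 2.87 in 3AP and 53.0 ± 3.47 in PLX3AP (adjusted p = 0.4634 for 3AP against control).

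Of 12 transcription factors and feedback genes, 7 rose in 3AP, among them Stat2, Irf1, Irf7, Irf8, Irf9 and Usp18, with a median log2 fold change of 0.94 over the 12. Irf7, a factor that amplifies interferon production and is itself an interferon target, went from 3.08 ± 0.358 to 31.8 ± 5.23 CPM (10.3-fold; adjusted p = 4.1e-07). Usp18, which removes ISG15 and dampens the receptor, rose 5.69-fold, and Irf9, a partner of STAT factors, 2.73-fold. In PLX3AP against 3AP 6 fell, among them Irf5, Irf7, Irf8, Irf9 and Usp18, with a median of -0.82. Irf7 fell 5.27-fold (adjusted p = 8.9e-06).

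Irf7 was the only one of the 12 called in PLX3AP against control, at 6.03 ± 0.180 CPM (log2 0.97; adjusted p = 0.043). That call was lost in 12 of 18 alternatives, with an adjusted p of 0.058 to 0.2887, among them leaving out any control library, 3AP replicate 1 or 2, or PLX3AP replicate 2 or 3. Its level in PLX3AP, like that of Ifi27l2a, was above the mean of control by about the same log2 amount (0.97 and 1.07), with only that of Irf7 past the threshold. The difference between the genes was not tested.

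Of 24 tested genes for other interferon-inducible effectors against viruses, 20 rose in 3AP (median log2 1.62) and 17 fell in PLX3AP against 3AP (median -1.28). Of the 24, 2 (Ch25h and Mx1) passed the filter on low counts through the 3AP libraries alone, so these counts do not stand apart from the filter. Leaving out single libraries gave 16 to 22 and 12 to 19, and limma-trend on log2 TPM with a pseudocount of 0.1 called 11 in PLX3AP against 3AP. Oasl2, of the oligoadenylate synthetase family, rose 6.49-fold (adjusted p = 6.9e-06), Isg15, a ubiquitin-like modifier, 6.38-fold (adjusted p = 9.7e-06) and Ifit3, which binds foreign RNA together with other IFIT proteins, 3.42-fold (adjusted p = 6.9e-06). In PLX3AP, Oasl2 was 4.35-fold, Trim30a 4.83-fold and Ifit3 2.27-fold lower than in 3AP. In PLX3AP against control 0 of the 24 were called by limma-voom or by edgeR with all libraries and the filter. DESeq2 called 3, and 8 had an unadjusted p under 0.05. With no filter, or without PLX3AP replicate 3, edgeR called 1 of the list. In 3AP against control, the rises of Ifitm1, Ifitm3, Bst2 and Ifi27l2a lay above the median of these effectors, and that of Ifitm2 below it.

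Genes for proteins that modify, move or bind IFITM3, tetherin or ISG12 proteins had log2 fold changes close to 0. They include Zmpste24, Zdhhc20, which palmitoylates IFITM3, and Nedd4, which ubiquitinates it. Of 13 tested, 0 were called in any comparison by edgeR, DESeq2 or limma-voom, and 0 had an unadjusted p under 0.05. Their log2 fold changes in 3AP against control were -0.13 to 0.17.

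**Figure D4:**
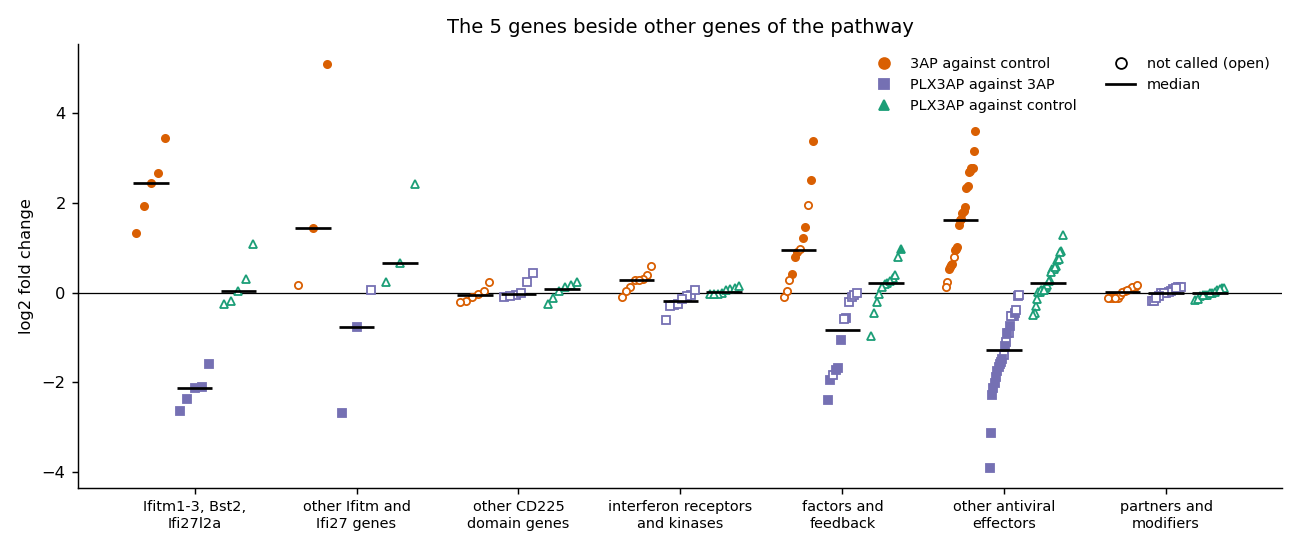
Log2 fold change (vertical axis) of the 5 genes and of 6 lists of related genes (horizontal axis) in the 3 comparisons, marked by colour and shape. Filled symbols are called at an adjusted p under 0.05, open symbols are not, and black bars are medians. The 5 genes have medians of 2.44, -2.13 and 0.03, and the 24 effectors 1.62, -1.28 and 0.20.

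Markers of cell types that can carry these genes moved between the groups as well. Of 12 microglia markers 5 rose in 3AP, among them Cx3cr1, Tmem119, Aif1 and C1qa, and 6 fell in PLX3AP against 3AP. Of those not called in 3AP against control, Gpr34, Siglech and P2ry12 had log2 fold changes below 0, of -0.85, -0.49 and -0.47. By limma-trend on log2 TPM with a pseudocount of 0.1, 3 were called in 3AP against control. Their summed level was 155 to 165 CPM in control, 265 to 317 in 3AP and 90.5 to 140 in PLX3AP. In PLX3AP against control 0 of the 12 were called by limma-voom or by edgeR with all libraries and the filter. DESeq2 called 3, and 7 had an unadjusted p under 0.05. With no filter edgeR called 2, and without PLX3AP replicate 1 or 3 it called 1. For border-associated macrophages 2 of 7 tested markers rose in 3AP, 7 fell in PLX3AP against 3AP and 5 fell in PLX3AP against control, with sums of 24.0 to 26.3, 36.2 to 39.1 and 3.73 to 6.92 CPM over the 8 markers listed. The count of 2 dropped to 1 without control replicate 1 or 2 or 3AP replicate 1 or 2, and that of 5 to 3 without PLX3AP replicate 2. By limma-trend on log2 TPM with pseudocounts of 1 and 0.1, the former was 1 and 0 and the latter 0 with both. The sums of the border-associated macrophage markers in PLX3AP lay below those in control.

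Of 7 tested markers of blood monocytes and neutrophils, 4 rose in 3AP (Ly6c2, Plac8, S100a9 and Retnlg) and 5 fell in PLX3AP against 3AP. Ccr2, Plac8 and Retnlg passed the filter on low counts through the 3AP libraries alone, so these counts are set in part by the filter. Sums over the 9 markers listed were 1.08 to 4.78 CPM in control, 9.80 to 25.1 in 3AP and 1.67 to 2.91 in PLX3AP. The count of 4 dropped to 2 without control replicate 1 or without 3AP replicate 1 or 2, and to 1 without control replicate 2 or with the replicate block. The count of 5 dropped to 2 without 3AP replicate 1, and to 3 without PLX3AP replicate 2 or 3, with a stricter filter or by limma-trend with a pseudocount of 0.1. Of 10 endothelial markers 6 rose in 3AP, Cldn5 by 2.56-fold and Pecam1 by 2.40-fold, and 1 (Itm2a) fell. Of these, 4 genes were called lower and Itm2a higher in PLX3AP against 3AP, and sums were 346 to 353, 441 to 472 and 336 to 343 CPM. Without 3AP replicate 1, or by limma-trend with a pseudocount of 0.1, 4 of the 10 were called in 3AP against control.

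Markers of astrocytes and of meningeal fibroblasts also differed. Gfap, the filament protein of reactive astrocytes, rose 3.53-fold in 3AP (adjusted p = 0.013) and fell 2.77-fold in PLX3AP against 3AP (adjusted p = 0.037), calls that were lost in 5 and 10 of the 18 alternatives, among them leaving out any control library (adjusted p 0.053 to 0.069 and 0.067 to 0.1413). Of the other 7 astrocyte markers, Aqp4 and Hopx fell in 3AP and Hopx rose in PLX3AP against 3AP. The call of Aqp4 was lost in 7 alternatives (adjusted p 0.061 to 0.1727). The summed level of the 8 was 3510 to 3769, 3538 to 4507 and 3462 to 3691 CPM in control, 3AP and PLX3AP. Dcn, which encodes the matrix proteoglycan decorin, rose 2.57-fold in 3AP (adjusted p = 0.0024) and fell 3.06-fold in PLX3AP against 3AP (adjusted p = 0.00093). Of the 7 meningeal markers it was the only one called in 3AP against control by edgeR with all libraries and the filter. DESeq2, and edgeR with no filter or without PLX3AP replicate 1, called 2. Col1a1 and Col3a1 also fell in PLX3AP against 3AP, both calls being lost by limma-trend on log2 TPM. The call of Col1a1 was also lost without 3AP replicate 1 or 2 or PLX3AP replicate 1 or 2. Its adjusted p over these 6 alternatives was 0.077 to 0.2079. The sums of the 7 overlapped between groups, at 195 to 322, 236 to 317 and 179 to 260 CPM.

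Bst2 is also a surface marker of plasmacytoid dendritic cells and plasma cells in the mouse. The 10 markers of these cells and of B and T cells had too few counts to be tested. Their sums were 0.616 to 1.36 CPM in control, 1.26 to 2.26 in 3AP and 0.714 to 2.35 in PLX3AP. The 6 choroid plexus markers, at 115 to 4003, 622 to 1950 and 27.5 to 2029 CPM, overlapped between groups, and 0 were called in any comparison by edgeR, DESeq2 or limma-voom, with 0 at an unadjusted p under 0.05. The part of microglia, macrophages, blood cells, endothelium, astrocytes, fibroblasts and lymphoid cells in the levels of the 5 genes was not tested.

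**Figure D5:**
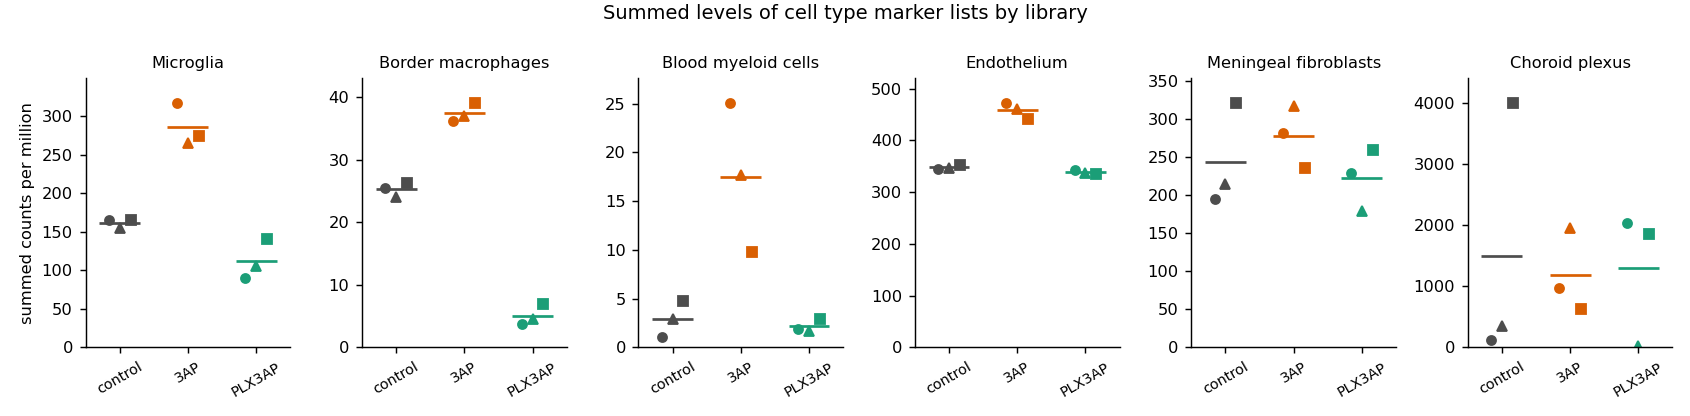
Summed CPM (vertical axes, starting at 0, one scale per panel) of 6 marker lists by library, with group means as lines and replicate numbers as shapes. The sums for microglia, border-associated macrophages, blood myeloid cells and endothelium are highest in the 3AP libraries. The choroid plexus sum is highest in control replicate 3, at 4003.

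Finally, the genes closest in pattern to each of the 5 were found by the root mean square (RMS) difference of centred log2 CPM over the 9 libraries, among all tested genes outside the 5. This is a description, in which differences between the groups weigh most. The RMS difference tends to grow with a gene's own spread, so it does not rank the 5 by how close their companions are. The RMS of each gene about its own mean was 0.729 for Ifitm2, 1.01 for Ifitm1, 1.12 for Bst2, 1.26 for Ifitm3 and 1.51 for Ifi27l2a. Companions of Ifitm2 were Tgm2, which encodes a transglutaminase (0.107), Arhgdib (0.157), Gpsm3 (0.165), Cd68, a lysosomal protein of macrophages (0.170), and Arpc1b (0.178). For Ifitm3 they were Lcp2 (0.229), Slfn2 (0.235), Oasl2 (0.262), C4b, a complement component (0.290), and the leukocyte integrin gene Itgb2 (0.292). For Bst2 they were C1s1 (0.181), Slfn2 (0.231), the immunoproteasome gene Psmb8 (0.233), and the class I genes H2-K1 (0.256) and H2-Q4 (0.259). Slfn2 thus stood near both.

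Companions of Ifitm1 were Ikzf1 (0.289), Pla1a (0.292), Ly6c2 (0.293), H2-Q4 (0.297) and Cp (0.299). Those of Ifi27l2a were Gpx3 (0.353), Irf7 (0.393), C4b (0.423), C1ra (0.466) and Oasl2 (0.519). Among the 5 themselves the RMS difference was smallest between Ifitm3 and Bst2 (0.274), on different chromosomes. It was 0.408 between Ifitm1 and Ifitm2, 0.422 between Ifitm1 and Ifitm3 and 0.576 between Ifitm2 and Ifitm3. It was largest between Ifitm2 and Ifi27l2a (0.940), the genes with the smallest and the largest rise.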

How the data were processed

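RNA was measured in 9 mouse cerebellum libraries, grouped by their labels. Tools named in the submitters' processing notes are RSEM, HISAT2, StringTie and fastp, with the mm10 build. For versions, annotation and strandedness: not given in the sources used here. As deposited, the files hold expected counts (estimated reads per gene, not normalised; 28.7 to 30.8% of values above 0 were not whole) and TPM, scaled by the authors to transcript length and library total. From the deposited expected counts, CPM and log2 values were calculated. The 1884 rows that name no gene, which held 0.526 to 0.660% of each library, were omitted, and 1705 rows that share 108 symbols were kept apart.

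Expected counts were rounded, filtered with filterByExpr and scaled by TMM (factors 0.986 to 1.02). A quasi-likelihood model (edgeR 4.0.16, R 4.3.3) and a term for each group took in all 9 libraries, with a biological coefficient of variation of 0.126. P-values are two-sided. Alternatives were RLE scaling, no filter or a stricter one (1 CPM in 3 libraries), DESeq2 1.42.0, limma 3.58.1 (voom, or a trend on log2 TPM with pseudocounts of 1 and 0.1), only the groups compared, a replicate block and leaving out each library. The fit was tested on simulated data. Ratios of TPM were compared by exact permutation (SciPy 1.17.1). Mean levels carry SDs over n = 3.

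The 5 genes and the 19 gene lists (187 genes in the files, 151 tested) were chosen with earlier results of these data known. Named genes were the 5; per list and comparison, up to 3 called genes with the smallest adjusted p; Irf7, Ifnar1, Ifnb1 and the other Ifitm and Ifi27 genes; and the 5 genes closest in pattern to each. Some genes that the rule takes in are not reported here. Genes of a list named beyond this rule, to spell out small counts or as examples, were chosen after their values were seen. Ifit3, the Ifitm genes, class I and complement genes have close copies, so their estimated counts are less certain. Counting intervals cover counting error only.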

Additional observations from a re-analysis of the deposited data

How the results depend on the processing

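The calls of the 5 genes did not change: under all 18 alternatives, 5 were called higher in 3AP than in control, 5 lower in PLX3AP than in 3AP, and 0 in PLX3AP against control. In the first 2 comparisons all 180 alternative values kept direction and call. In PLX3AP against control 2 of 90 values changed sign, neither called: Ifitm1 without control replicate 3 (log2 0.0087, range when single libraries were left out -0.44 to 0.0087) and Ifitm3 without control replicate 1 (-0.12, range -0.12 to 0.22). The number of genes called in 3AP against control was 515 (445 higher, 70 lower) and 448 (383 and 65) by limma-trend on log2 TPM with pseudocounts of 1 and 0.1, and in PLX3AP against 3AP 357 (45 and 312) with 0.1. In PLX3AP against control it was 71 with no filter, 105 by DESeq2, 5 and 4 by limma-trend, and 10 with the replicate block. Leaving out single libraries gave 466 (without 3AP replicate 1) to 991, 401 (without 3AP replicate 1) to 715, and 7 (without PLX3AP replicate 2) to 153 (without PLX3AP replicate 1) genes. Of 210 alternative log2 ratios between the 5 genes, 6 changed sign: Ifitm1 to Ifitm2 in PLX3AP against control without PLX3AP replicate 1 (-0.12) or control replicate 1 (-0.09; range with single libraries left out -0.12 to 0.37); Ifitm1 to Bst2 in PLX3AP against 3AP without PLX3AP replicate 1 (-0.16), PLX3AP replicate 2 (-0.06) or 3AP replicate 3 (-0.22; range -0.22 to 0.30); and Ifitm3 to Ifi27l2a in PLX3AP against 3AP without PLX3AP replicate 3 (0.0059; range -0.45 to 0.0059). The CPM ratios and these left-out values were alternatives chosen after seeing the data. The cause was not tested.

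Correlations of deviations were -0.203 to 0.0931 between samples with the same replicate number and -0.112 to 0.232 between the others. With 3 libraries a group these cannot settle whether the numbers pair samples, and the labels do not say. With the replicate block 580 genes were called in 3AP against control, and no call of the 5 genes changed. Low counts limit Ifi27l2a most of the 5 genes, with 10 estimated counts in 2 control libraries. Ifitm5, Ifitm7 and the interferon ligand genes had too few counts to be tested, and the part of depth in this was not tested.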
